A study of Mus musculus with 36 samples.

Results

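The mouse genes for the proteins of the cytosolic ribosome, with the close copies that share their names, were examined in 9 groups of macrophages and monocytes. A gene was a member when its symbol began with Rpl or Rps followed by a digit, or was Rplp0, Rplp1, Rplp2 or Rpsa. Ribosomal S6 kinases and symbols marked as pseudogenes were left out. Only probe sets annotated to a single gene were used, and a gene with several was represented by the one with the highest mean. The rule gave 63 members of 19938 genes with such a probe set. They comprised 30 large subunit proteins, 21 small subunit proteins and 3 proteins of the ribosomal stalk, together called the core proteins below. The other members were 7 genes named as copies of a ribosomal protein (Rps4l, Rpl39l, Rps27l, Rpl10l, Rpl3l, Rpl7l1 and Rpl32l), the retrogene Rps23rg1 and Rps19bp1, which encodes a protein that binds Rps19. A further 32 RefSeq symbols of the same form had no probe set of their own, among them Rpl22l1, Rpl39, Rps27 and Rpl3, and 20 of these lay on probe sets shared with other genes. They were not analysed here.

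RNA was hybridised to Affymetrix Mouse Gene 1.0 ST arrays, and levels are given as log2 values from robust multi-array averaging (RMA), so a step of 1 is a doubling of the signal. All cells came from C57BL/6 wild-type mice carrying both CD45.1 and CD45.2, and were sorted by flow cytometry. There were 4 biological replicates in each of 9 groups, 36 arrays in all. The precursors were bone marrow (BM) monocytes from mice 6 to 12 weeks old, fetal liver (FL) monocytes from E15.5 embryos and yolk sac (YS) macrophages from E12.5 embryos. Adult alveolar macrophages (AMs), also from mice 6 to 12 weeks old, were taken by lavage of the lung. Portions of these populations were given through the nose to newborn Csf2rb-/- mice, which lack a receptor chain for GM-CSF and so do not form normal AMs. AMs descended from the donor cells were sorted from the lavage 6 weeks later and are named for the cell given (BM-derived, FL-derived or YS-derived), or retransferred where adult AMs were given. AMs of untreated wild-type mice 6 weeks old served as the age-matched group. Whether a replicate was 1 animal or a pool is not given in the sources used here, so the p-values measure the spread between these samples.

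The labelled cell types were checked against their markers. The mean of 7 alveolar macrophage markers, Siglecf, Car4 and Pparg among them, was 10.44 to 10.57 in the 6 groups of AMs and 4.83 to 5.99 in the 3 precursor groups. Yolk sac macrophages had a mean of 10.50 over 8 tissue macrophage markers. They also carried signal for red cell genes, with a mean over 6 erythroid markers of 6.69 against 3.99 to 4.18 in the other groups. Hbb-y (10.44), Hba-x (9.04), Hbb-bh1 (6.68) and Epor (6.06) exceeded every other group, but Alas2 (4.14) and Klf1 (3.76) did not. Over 7 endoderm and liver markers the mean was 5.25 against 4.38 to 4.54. Afp (6.93), Ttr (5.50), Apoa1 (5.81) and Apob (4.28) exceeded every other group. Alb (3.60) and Amn (5.85) did not, and Apoa4 was 4.79 against 4.73 in BM monocytes. The mean over 6 progenitor markers was 5.34 in FL monocytes and 3.94 to 4.63 in the other groups. Cd34 carried most of this, at 8.92 in FL and 3.75 in BM monocytes. Myb was 5.59 against 5.11, and Kit, Flt3 (4.35 against 5.36), Meis1 and Hoxa9 were lower in FL than in BM monocytes. The mean over 8 neutrophil markers was 7.63 in BM monocytes and 8.50 in FL monocytes, against 3.84 to 3.93 elsewhere. Stfa3 (12.31 against 3.46), Elane, Prtn3 and Mpo were higher in FL than in BM monocytes. Ngp (6.13 against 9.58), Camp (9.47 against 10.99), Ltf (3.93 against 5.81) and Retnlg (3.52 against 3.79) were lower. The mean over 8 lung epithelial markers was 5.43 to 5.73 in AMs and 4.65 to 4.66 in precursors. Cdh1, Epcam, Scgb1a1 and Sftpc had a higher mean in every group of AMs than in every precursor group. Krt18 was lower in every group of AMs, and the group means of Sftpa1, Sftpb and Krt8 overlapped between AMs and precursors. The part of these other cells in the differences below was not tested. Fewer cells of a type and less RNA per cell cannot be told apart in such bulk samples.

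Ribosomal proteins assemble with ribosomal RNA into the large and small subunits that carry out protein synthesis, and their messages are among the most abundant in any growing cell. Most are needed in equal amounts, their promoters share a pyrimidine-rich start, and excess protein is degraded. A few genes have a second, often retroposed, copy whose product can take the place of the usual protein in some tissues. Rps4l is an autosomal copy of the X-linked Rps4x, and Rpl39l, a copy of the X-linked Rpl39, is best known from male germ cells.

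The start regions of 5 members are shown because their genes behaved differently. Among the precursors, Rpl39l and Rps2 were lower in BM monocytes than in FL monocytes and YS macrophages. Rpl14 fell in transferred yolk sac cells, Rpl19 was highest in BM monocytes and Rps4x was flat. Each line runs from 150 bases before to 30 after the RefSeq start in the GRCm38.p6 assembly, on the gene's own strand. Capitals mark 2 motifs: CCGGAAG on either strand, the core of ETS factor sites, and CTTTCC on the gene's strand within 25 bases of the start, a form of the pyrimidine-rich start. Rpl39l lies at chr16:10170078-10170257 on the plus strand, Rps4x at chrX:102189362-102189541 on the minus strand and Rps2 at chr17:24719913-24720092 on the plus strand. Rpl19 lies at chr11:98026560-98026739 and Rpl14 at chr9:120571367-120571546, both on the plus strand.
Rpl39l: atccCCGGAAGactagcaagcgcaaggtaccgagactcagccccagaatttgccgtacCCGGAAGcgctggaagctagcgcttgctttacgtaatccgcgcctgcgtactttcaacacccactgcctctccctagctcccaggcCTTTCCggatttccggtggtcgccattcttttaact
Rps4x: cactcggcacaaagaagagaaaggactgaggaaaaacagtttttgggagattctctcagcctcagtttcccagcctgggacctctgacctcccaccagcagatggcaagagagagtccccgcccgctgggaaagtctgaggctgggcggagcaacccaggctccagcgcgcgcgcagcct
Rps2: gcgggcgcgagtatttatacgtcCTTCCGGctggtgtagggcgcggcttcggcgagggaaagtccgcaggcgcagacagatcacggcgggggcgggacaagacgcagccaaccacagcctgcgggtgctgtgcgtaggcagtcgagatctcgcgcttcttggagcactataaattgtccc
Rpl19: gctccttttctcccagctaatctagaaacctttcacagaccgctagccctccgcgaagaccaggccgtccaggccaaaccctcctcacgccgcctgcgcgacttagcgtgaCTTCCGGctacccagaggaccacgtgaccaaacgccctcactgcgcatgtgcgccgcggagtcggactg
Rpl14: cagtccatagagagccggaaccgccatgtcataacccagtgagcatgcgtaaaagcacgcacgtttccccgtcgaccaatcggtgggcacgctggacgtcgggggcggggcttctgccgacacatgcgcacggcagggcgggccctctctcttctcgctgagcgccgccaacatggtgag
The Rpl39l stretch held 2 copies of CCGGAAG and 1 of CTTTCC, and those of Rps2 and Rpl19 each held 1 copy of CCGGAAG. Neither motif was found in the stretches of Rps4x and Rpl14. Windows from 250 bases before to 50 after the start were on hand for 51 of the 63 members, and Rps4l was not among them. CCGGAAG occurred in the windows of 17 of 43 core proteins (39.5%) and of 9.93% of 27025 genes. CTTTCC within 25 bases of the start occurred in 4 of 43 (9.30%) and in 2.92% of all genes. These matches describe letters in the sequence and show no binding.

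The median level of the core proteins was alike in all 9 groups. The median over the 54 core proteins in each array was 12.53 ± 0.06 (SD, n = 4) in BM monocytes, 12.53 ± 0.04 in FL monocytes and 12.52 ± 0.02 in YS macrophages. It was 12.45 ± 0.07 in adult AMs and 12.48 ± 0.03 in AMs of 6-week-old mice. The transferred cells gave 12.43 ± 0.02 (BM-derived), 12.45 ± 0.04 (FL-derived), 12.46 ± 0.01 (YS-derived) and 12.44 ± 0.02 (retransferred). Of the 54, 39 had a mean of 12 or more over all arrays. The dimmest probe sets were those of Rpl12 (4.57), Rpl30 (7.42), Rps15a (7.52), Rplp2 (7.64) and Rpl22 (8.70).

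Single core proteins were nearly as even. The range of the 9 group means had a median of 0.17 over the core proteins and of 0.74 over the 12244 genes bright enough to test. Of the 54 core proteins, 39 had a range below 0.25. Rps15, a small subunit protein, had the lowest range at 0.05: its group means ran from 12.88 in BM-derived AMs to 12.93 in YS macrophages. Rps29, another small subunit protein, varied by 0.06 and Rpl36a by 0.08. Rps4x, the X-linked partner of Rps4l, stayed between 12.44 in retransferred AMs and 12.53 in BM monocytes. At the other end Rpl14 reached a range of 1.03. The plot of group means by member shows most core proteins bunched at the foot and Rpl39l and Rps4l at the head. Rpl14 came next, above the other copies, and the copy Rpl32l (range 0.19) lay among the core proteins.

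**Figure D1:**
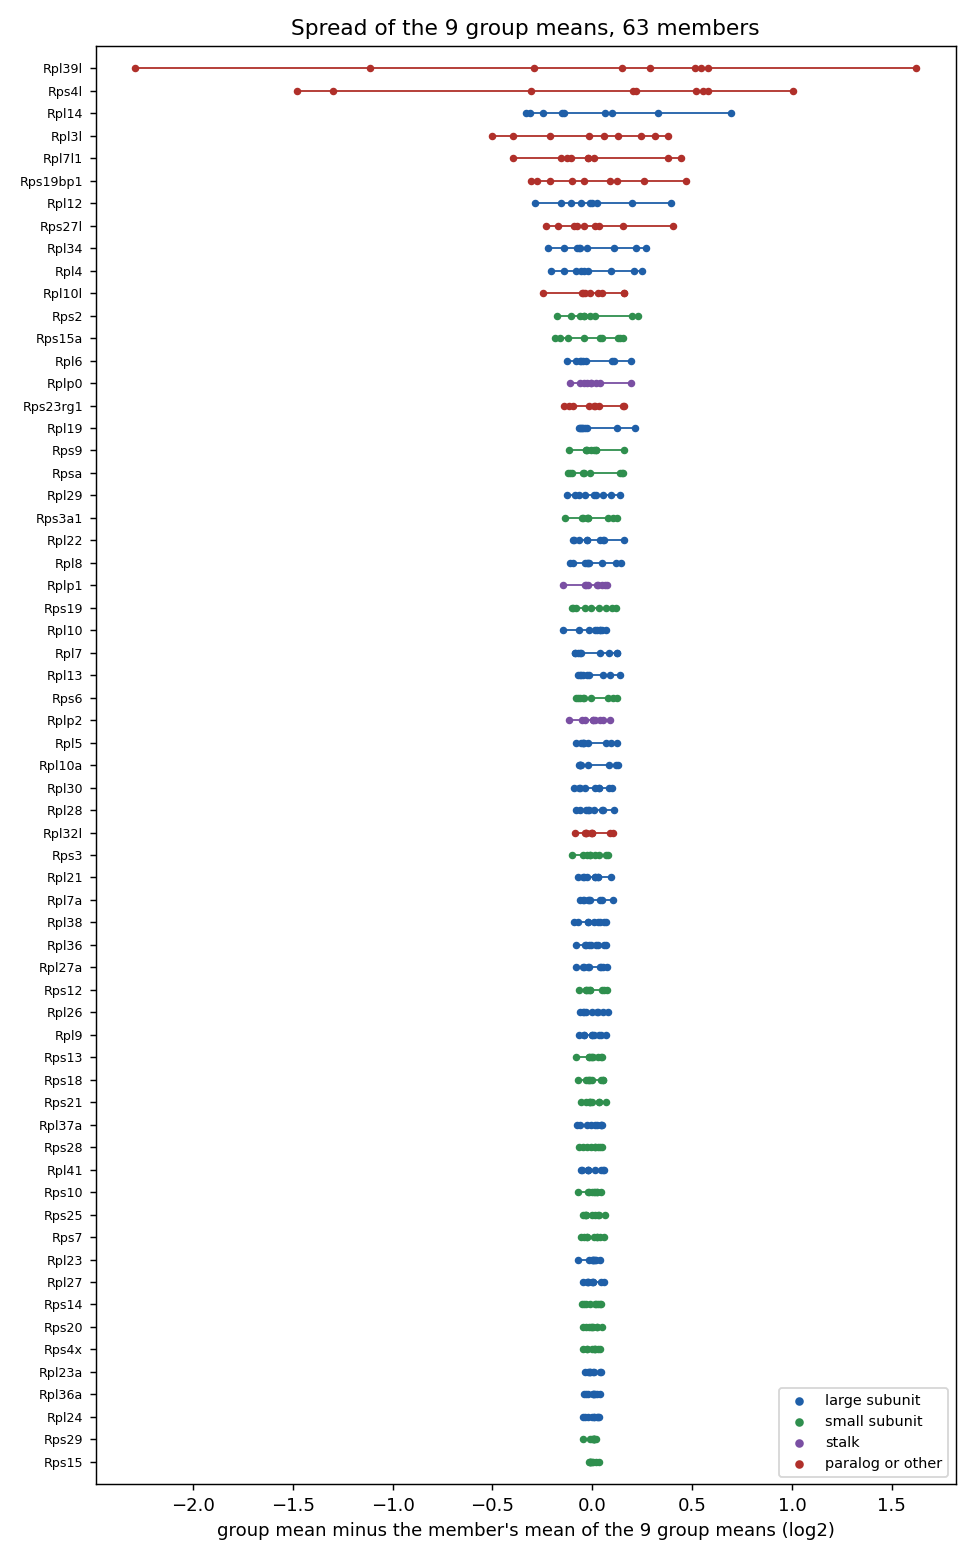
Each row is a member, and its 9 points are the group means minus their average (log2, 4 arrays a group), with colours for the large subunit, the small subunit, the stalk and the copies or others. Rows are sorted by range, from 0.05 for Rps15 to 3.91 for Rpl39l and 2.49 for Rps4l.

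The evenness was not shared by all genes of that brightness. Of the 82 tested genes with a mean of 12 or more, 39 were members, and their range of group means had a median of 0.13. The other 43 had a median range of 0.42, a description without a test. These values lie near the top of the scale, since the 99th percentile of the deposited table was 12.35, and how far the array compresses differences there was not tested. Within groups the core proteins partly moved together: across the 36 arrays, after subtracting group means, the correlation of a protein with the median of the others had a median of 0.53. It ran from -0.75 for Rpl4, a large subunit protein, to 0.94 for Rps25, a small subunit protein, and passed 0.5 for 28 of 54. The points share the array and its normalization.

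Rps4l separated cells of bone marrow origin from all others. In BM monocytes its levels were 6.80, 6.42, 6.71 and 7.09, and in BM-derived AMs they were 6.85, 6.86, 6.27 and 6.30. Every array of the other 7 groups lay higher, the lowest at 7.72. FL monocytes gave 8.55, 8.79, 8.43 and 8.52, and YS macrophages gave 9.01, 9.33, 9.01 and 8.90. The precursor groups did not overlap with each other.

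The same order was found after 6 weeks in the lung. FL-derived AMs had 8.05, 8.25, 8.07 and 8.67, and YS-derived AMs had 8.75, 8.56, 8.49 and 8.73. The 6-week-old wild-type AMs had 8.20, 8.64, 7.98 and 8.27, adult AMs 8.27, 8.34, 9.24 and 8.57. Retransferred AMs lay between the BM groups and the rest, at 7.77, 7.73, 7.77 and 7.72. In the order of group means, BM-derived AMs overlapped BM monocytes, and retransferred AMs stood apart on both sides. From FL-derived AMs at 8.26 up to YS-derived AMs at 8.63 each group overlapped the next, and YS macrophages stood at the top with 9.06.

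In limma's fit over all 36 arrays, with Benjamini-Hochberg adjustment over the 12244 genes, Rps4l was 1.82 ± 0.18 (SE) higher on the log2 scale in FL than in BM monocytes, a 3.53-fold difference (adjusted p = 2.78e-09). It was 2.31 ± 0.18 higher in YS macrophages than in BM monocytes (adjusted p = 1.05e-12, limma). The difference persisted in the descendants: 1.69 ± 0.18 for FL-derived minus BM-derived AMs (adjusted p = 4.51e-07, limma) and 2.06 ± 0.18 for YS-derived minus BM-derived AMs (adjusted p = 4.43e-09, limma). Compared with 6-week-old AMs, Rps4l was 1.70 ± 0.18 lower in BM-derived AMs (adjusted p = 1.16e-07, limma). None of the 3 changes from precursor to AM passed the test for Rps4l: the values were -0.18 in BM, -0.31 in FL and -0.43 in YS cells, with adjusted p of 0.457, 0.181 and 0.0552 (limma). Retransferred AMs were 0.86 ± 0.18 below adult AMs (adjusted p = 0.00965, limma), but this call was lost without adult replicate 3 (0.65 lower, adjusted p = 0.0819) and when only those 8 arrays were fitted (adjusted p = 0.151). YS macrophages exceeded FL monocytes by 0.49 ± 0.18 (adjusted p = 0.036, limma), which 6 of 8 fits that left out 1 array did not call.

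A second probe set of Rps4l also separated cells of bone marrow origin from all others, at a narrower span. Its means were 7.14 ± 0.22 in BM monocytes and 7.05 ± 0.32 in BM-derived AMs, and 7.70 ± 0.07 to 8.40 ± 0.05 in the other groups (SD, n = 4). The highest BM array read 7.48 and the lowest other array 7.60. Here retransferred AMs did not stand apart from the rest: they read 7.60 to 7.78, and FL-derived AMs 7.73 to 7.97. The names of the 2 probe sets come from the platform annotation.

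**Figure D2:**
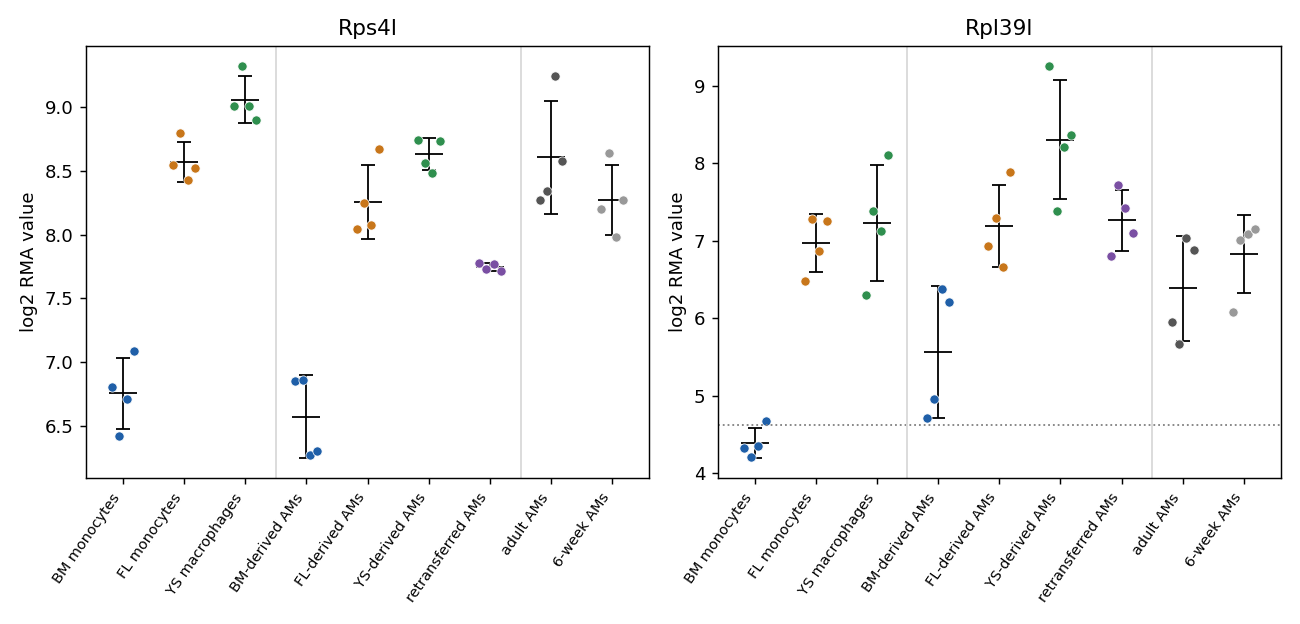
Log2 RMA values of Rps4l (left) and Rpl39l (right) in every array, with the mean and SD of each group of 4 as black bars and, for Rpl39l, the median of the table (4.62) as a dotted line. All 8 arrays of bone marrow origin lie below the other 28 for Rps4l, while for Rpl39l BM-derived AMs overlap adult AMs.

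Rpl39l spanned the widest range of all members. It was at 4.33, 4.21, 4.35 and 4.67 in BM monocytes, where 3 of 4 arrays fell below the median of the deposited table (4.62). FL monocytes read 6.48, 7.28, 6.87 and 7.26, and YS macrophages 6.29, 7.38, 7.12 and 8.10. Neither of the embryonic groups overlapped BM monocytes. Because BM monocytes were dim, folds were taken against the table median: Rpl39l was at least 5.08-fold higher in FL monocytes and at least 6.07-fold higher in YS macrophages. The fitted log2 differences were 2.58 ± 0.39 (adjusted p = 6.89e-06, limma) and 2.84 ± 0.39 (adjusted p = 3.03e-07, limma).

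In the AMs Rpl39l was present in every group and varied more between replicates. BM-derived AMs read 4.71, 4.96, 6.38 and 6.21, FL-derived 6.93, 7.29, 6.66 and 7.89, and YS-derived 9.26, 7.38, 8.21 and 8.36. Retransferred AMs read 6.80, 7.72, 7.43 and 7.10, adult AMs 5.95, 5.67, 7.04 and 6.88, and AMs of 6-week-old mice 6.07, 7.01, 7.09 and 7.15. In the order of group means only BM monocytes stood clear of their neighbour. Replicates 3 and 4 of the BM-derived AMs were high for Rpl39l and low for Rps4l, and replicates 1 and 2 the reverse.

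YS-derived AMs exceeded BM-derived AMs by 2.74 ± 0.39, a 6.67-fold difference (adjusted p = 3.04e-05, limma), with no overlap. FL-derived minus BM-derived AMs gave 1.63 ± 0.39 and missed the threshold (adjusted p = 0.0519, limma). BM-derived AMs were 1.18 ± 0.39 above their monocytes, at least 1.92-fold (adjusted p = 0.0173, limma), but not without BM-derived replicate 3 (0.90, adjusted p = 0.0921) or 4 (0.96, adjusted p = 0.0753). YS-derived AMs were 1.08 ± 0.39 above YS macrophages (adjusted p = 0.0248, limma), and lost the call in 3 of 8 fits that left out 1 array, among them those without YS macrophage replicate 1 (0.77) and without YS-derived replicate 1 (0.76, adjusted p = 0.138). The excess of YS-derived over 6-week-old AMs, 1.47 ± 0.39 (adjusted p = 0.0407, limma), was lost in 7 of 8 such fits.

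Rpl7l1, also lowest in BM monocytes, is described with the precursors below. Rps27l, a relative of Rps27 known as a p53 target, lay between 10.71 ± 0.24 in BM monocytes and 11.34 ± 0.16 in retransferred AMs and was called in none of the 15 comparisons between groups. Rpl32l stayed between 6.14 and 6.32, and Rps23rg1 between 4.91 and 5.21. Rpl10l, which serves male meiosis, never exceeded the table median in any array and was not tested. Rpl3l, the striated muscle copy of Rpl3, was dim, above the table median in 17 of 36 arrays. It was called higher in all 3 groups of AMs than in their precursors, by 0.45 ± 0.16 in BM, 0.45 ± 0.16 in FL and 0.48 ± 0.16 in YS cells (adjusted p = 0.0287, 0.0265 and 0.0163, limma). Each of these calls failed in 3 or more of the 8 fits without 1 array.

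Among the precursors, few members differed. FL exceeded BM monocytes for 5 of the 62 members tested, with none lower, against 19.5% of all genes called (10.6% higher and 8.97% lower). These were Rpl39l, Rps4l, Rpl7l1, Rps19bp1 and Rps2. Rps2, a small subunit protein at the entry of the messenger RNA channel, was the only core protein: it read 12.28, 12.24, 12.56 and 12.39 in BM and 12.85, 12.86, 12.70 and 12.68 in FL monocytes. The groups did not overlap, and FL monocytes were 0.41 ± 0.08 higher, or 1.33-fold (adjusted p = 0.000274, limma). Rpl7l1, a large subunit relative that acts in ribosome assembly, was 0.78 ± 0.17 higher and Rps19bp1 0.57 ± 0.15 higher. The median log2 difference of the members was 0.01, and that of all genes 0.00.

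YS macrophages differed from BM monocytes in 10 members, 7 higher and 3 lower, while 42.2% of all genes were called (24.1% higher and 18.1% lower). The higher ones were the 5 named above, Rpl14 and Rpl12. Rpl14, a large subunit protein, read 10.05, 9.87, 10.19 and 10.30 in BM monocytes and 10.59, 10.68, 10.89 and 10.77 in YS macrophages, 0.63 ± 0.16 higher (adjusted p = 0.00178, limma). Rps2 was 0.37 ± 0.08 higher, Rpl7l1 0.84 ± 0.17 and Rps19bp1 0.78 ± 0.15. Rpl12 was dim, with a BM mean of 4.28 below the table median, and its 0.68 ± 0.23 was lost without YS replicate 3 (0.56, adjusted p = 0.0654). Lower in YS macrophages were the large subunit protein Rpl19 (log2 difference -0.24 ± 0.07), the small subunit protein Rps9 (-0.28 ± 0.08) and the stalk protein Rplp0 (-0.18 ± 0.07). The Rplp0 call was lost in 6 of 8 fits without 1 array. Against FL monocytes, YS macrophages differed in 1 member, Rps4l, while 33.1% of all genes were called (18.6% higher and 14.5% lower). At an unadjusted p of 0.05, 4 members passed (6.45% of those tested), beside 41.4% of all genes.

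The split between higher and lower depends on scaling, because the median of all tested genes was itself not level across the groups. Centring each array on that median shifted the YS minus BM differences by -0.16 and gave 19 members called, 5 higher and 14 lower. For YS minus FL it gave 7, all lower. Unless a share of all genes is stated, counts under alternative settings here and below do not compare members with all genes. Rps2 then lost its call in YS minus BM (adjusted p = 0.0519, limma), and Rpl19 and Rps9 lost theirs after quantile normalization. Rpl14, Rps4l, Rpl39l, Rpl7l1 and Rps19bp1 stayed above BM monocytes in YS macrophages under every alternative tried.

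On becoming AMs the BM monocytes changed in 9 members, 2 higher (Rpl39l and Rpl3l) and 7 lower, against 36.4% of all genes (20.3% higher and 16.1% lower). The 7 were core proteins: Rpl19 (-0.28 ± 0.07, adjusted p = 0.00195), Rpsa (-0.25 ± 0.07, adjusted p = 0.00599), Rplp0 (-0.24 ± 0.07, adjusted p = 0.00741), Rpl7 (-0.21), Rps19 (-0.21), Rpl13 (-0.20) and Rps9 (-0.19), all by limma. Rpsa, a small subunit protein also known as a laminin receptor, read between 12.75 and 12.89 in BM monocytes and between 12.51 and 12.65 in BM-derived AMs. Rpl19 means were 12.64 and 12.36. Of the 54 core proteins, 47 had a lower mean after transfer, with a core median of -0.08 against -0.02 for all genes. When arrays were centred, 29 members were called, 1 higher and 28 lower, and 2, both higher, when only these 8 arrays were fitted. Quantile normalization gave 16, 2 higher and 14 lower. A trended variance prior gave 19 members (30.6%), 2 higher and 17 lower, beside 36.4% of all genes. Leaving out 1 array gave 4 to 8 members, and the Rpl7 call held in 2 and the Rps9 call in 1 of these 8 fits.

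FL monocytes changed in 6 members, 2 higher and 4 lower, with 38.3% of all genes called (20.4% higher and 18% lower). Rpl10, a late-joining protein of the large subunit, was 0.19 ± 0.07 higher, and Rpl3l the other. Rpl4 (-0.30 ± 0.10), Rpl6 (-0.25 ± 0.07), Rps2 (-0.22 ± 0.08) and Rpl10a (-0.19 ± 0.07) were lower. Rpl6, a large subunit protein, ran from 12.13 to 12.25 in FL monocytes and from 11.88 to 12.03 in FL-derived AMs. The Rps2 call held in 3 of the 8 fits without 1 array. Centring gave 16 members, all lower, and quantile normalization 17, 2 higher and 15 lower. A trended variance prior gave 17 members (27.4%), 4 higher and 13 lower, beside 38.6% of all genes. Fitting only these arrays gave 1, lower, and leaving out 1 array 4 to 7.

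YS macrophages changed in 9 members, 2 higher (Rpl39l and Rpl3l) and 7 lower, with 42.9% of all genes called (19.6% higher and 23.2% lower). Rpl14 had the largest fall of the 7, from the YS values above to 9.60, 9.69, 9.92 and 9.70, a log2 difference of -1.01 ± 0.16 or 2.01-fold (adjusted p = 3.84e-06, limma), and all alternatives kept this call. Rps19bp1 read 8.30, 8.87, 8.53 and 8.82 before and 8.17, 7.72, 8.01 and 7.90 after, a difference of -0.68 ± 0.15 (adjusted p = 0.000392, limma). Rpl7l1 fell by 0.43 ± 0.17, Rpsa by 0.25 ± 0.07, Rpl8 by 0.22 ± 0.08, Rps2 by 0.21 ± 0.08 and Rpl10a by 0.17 ± 0.07. The Rpl7l1 and Rps2 calls each held in 2 of the 8 fits without 1 array, and centring lost both. Centring left 5 calls, 3 higher and 2 lower, whereas quantile normalization gave 25, 2 higher and 23 lower. A trended variance prior gave 19 members (30.6%), 5 higher and 14 lower, beside 42.9% of all genes. Leaving out 1 array gave 5 to 8. In BM-derived and FL-derived AMs Rpl14 means were 9.79 and 10.14, against 10.10 and 10.37 in their precursors, and neither change passed the test.

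**Figure D3:**
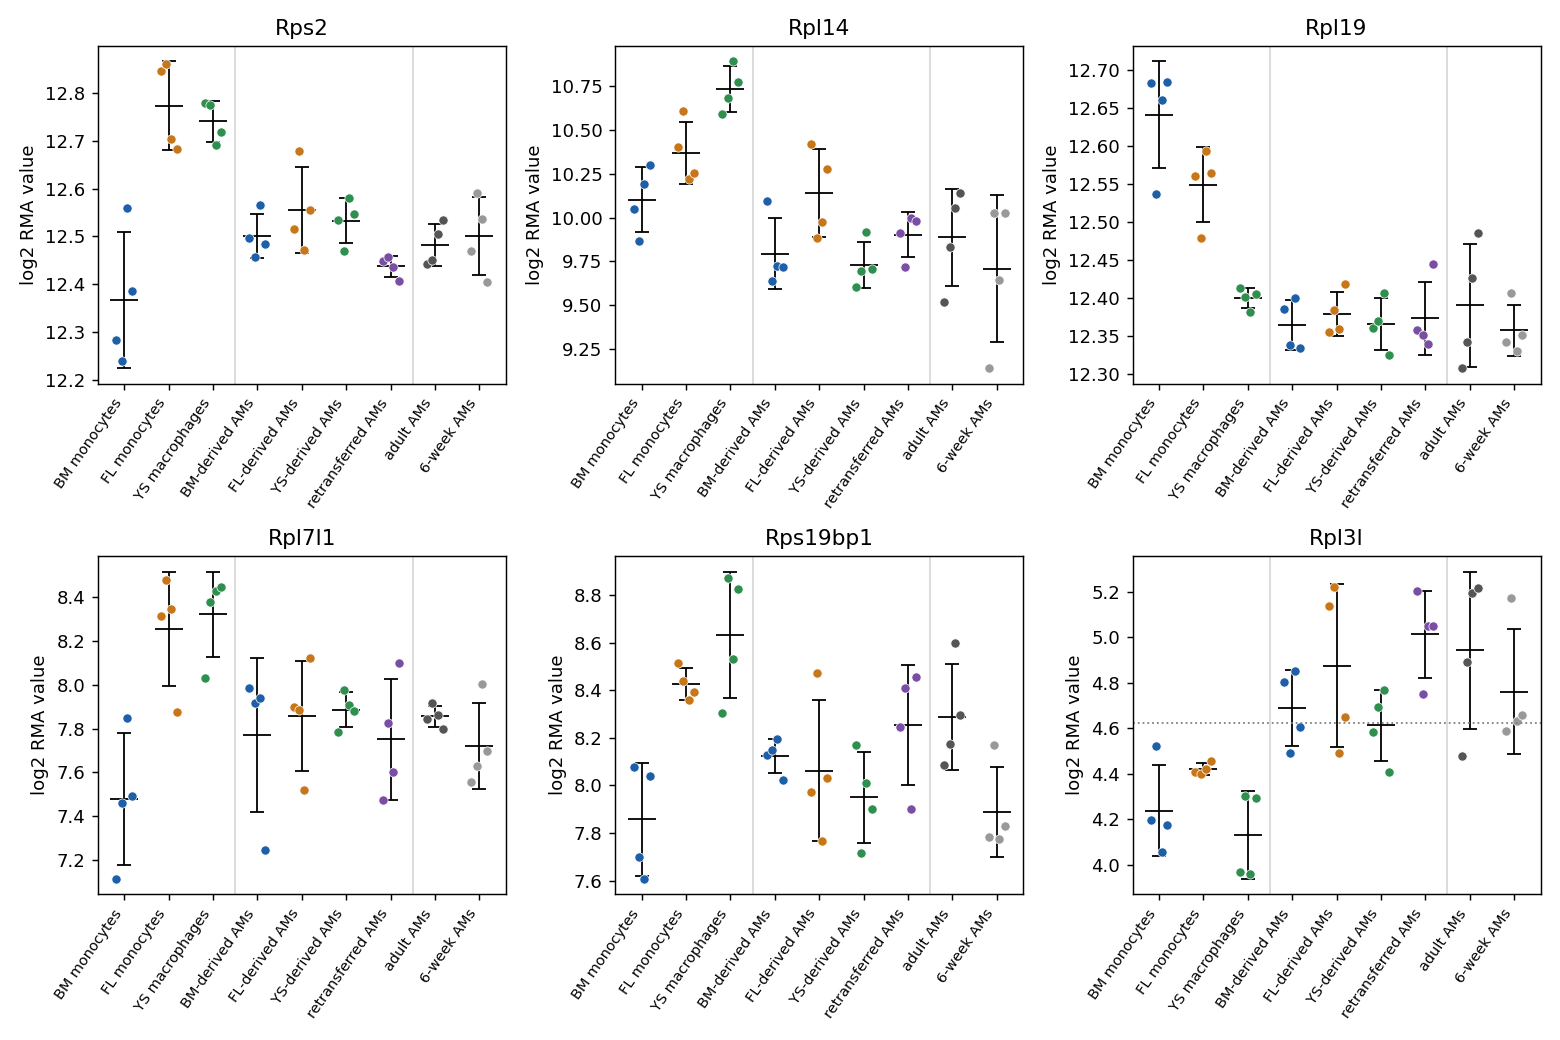
Log2 RMA values of Rps2, Rpl14, Rpl19, Rpl7l1, Rps19bp1 and Rpl3l in every array, with the mean and SD of each group of 4 as black bars and the table median dotted for Rpl3l. Rps2 is lowest in BM monocytes (mean 12.37) and highest in FL monocytes (12.77), Rpl14 is highest in YS macrophages (10.73) and Rpl19 is highest in BM monocytes (12.64), and each y axis has its own scale.

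The change on transfer was compared between origins by interaction terms in the same fit. It differed between YS and BM cells for 5 members, 1 in the positive and 4 in the negative direction, with 30.6% of all genes called (12.4% and 18.2%). Rps19bp1 differed by -0.95 ± 0.22, Rpl7l1 by -0.73 ± 0.23, Rpl14 by -0.70 ± 0.23 and Rps2 by -0.34 ± 0.11, and Rps9 by 0.32 ± 0.11 (adjusted p = 0.000824, 0.0174, 0.019, 0.0202 and 0.0228, limma). Centring gave 9 members, 8 higher and 1 lower, and kept Rps19bp1. Between FL and BM cells only Rps2 differed, by -0.35 ± 0.11 (adjusted p = 0.0418, limma), with 9.94% of all genes called. Of the 8 alternatives that kept all replicates 4 lost it, and it held in 5 of 16 fits without 1 array. Between YS and FL cells only Rpl14 differed, by -0.77 ± 0.23 (adjusted p = 0.0117, limma), with 22.9% of all genes called, and centring lost it (-0.60, adjusted p = 0.0538, limma). The 3 contrasts share their precursor and AM arrays.

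Among the AMs, no core protein was called by limma in any of the 9 comparisons, with the trended, robust prior none either, and 0 to 2 passed at an unadjusted p under 0.05. FL-derived minus BM-derived AMs gave 1 member, Rps4l (0.417% of all genes called), and YS-derived minus BM-derived AMs gave Rps4l and Rpl39l (0.833%). Retransferred minus adult AMs gave Rps4l (0.702%). BM-derived minus 6-week-old AMs gave Rps4l (1.31%) and YS-derived minus 6-week-old AMs gave Rpl39l (1.72%). No member was called by limma between YS-derived and FL-derived AMs (0.27% of all genes), between FL-derived and 6-week-old AMs (1.05%), between retransferred and 6-week-old AMs (1.07%) or between adult and 6-week-old AMs (0.0163%). At an unadjusted p under 0.05 these 4 comparisons had 3, 1, 4 and 1 members (4.84%, 1.61%, 6.45% and 1.61% of those tested). The shares of all genes were 6.28%, 6.89%, 9.09% and 4.08%. The moderated test with a trended, robust prior also called no member in these 4. Several of these contrasts share a group of arrays.

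In the deposited values, genes that build ribosomes did not share the flat course of the proteins themselves. The core proteins lie near the top of the scale, where compression of differences was not tested, and the biogenesis genes lie well below it. The list of 54 ribosome biogenesis genes, which process ribosomal RNA and assemble subunits, had array medians of 6.67 ± 0.11 (SD, n = 4) in BM monocytes, 7.15 ± 0.18 in FL monocytes and 7.76 ± 0.06 in YS macrophages. In the 6 groups of AMs they were 7.12 to 7.28. FL exceeded BM monocytes for 27 of 54, with none lower, beside 10.6% of all genes higher. YS macrophages exceeded BM monocytes for 42 of 54, with none lower and a median log2 difference of 0.99, beside 24.1% of all genes higher. The nucleolar GTPase gene Gnl3 was 3.26 ± 0.24 higher there, the box C/D snoRNP gene Nop58 2.33 ± 0.17, the export adaptor gene Nmd3 1.81 ± 0.14 and the processing factor gene Rrp15 2.29 ± 0.19.

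After transfer of BM cells 28 of the 54 were called higher and none lower, beside 20.3% and 16.1% of all genes, with Gnl3 up by 2.04 ± 0.24. In FL cells 4 were higher and 8 lower, which is 22.2% called beside 38.3% of all genes, and the 8 included Nop56 (-0.86 ± 0.13) and the rRNA methyltransferase gene Fbl (-0.82 ± 0.13). In YS cells 1 was higher and 33 lower, beside 19.6% and 23.2% of all genes, with Nmd3 at -1.27 ± 0.14. Myc, a transcription factor known to drive ribosome production, had means of 6.33 ± 0.71 in BM monocytes, 7.81 ± 0.43 in FL monocytes, 9.84 ± 0.15 in YS macrophages and 8.79 to 9.51 in AMs. On transfer Myc rose in BM cells (2.51 ± 0.23, adjusted p = 9.63e-11, limma) and in FL cells (1.70 ± 0.23, adjusted p = 2.99e-07, limma). In YS cells Myc fell (-0.70 ± 0.23, adjusted p = 0.0145, limma). The part of Myc in the ribosome biogenesis differences was not tested.

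**Figure D4:**
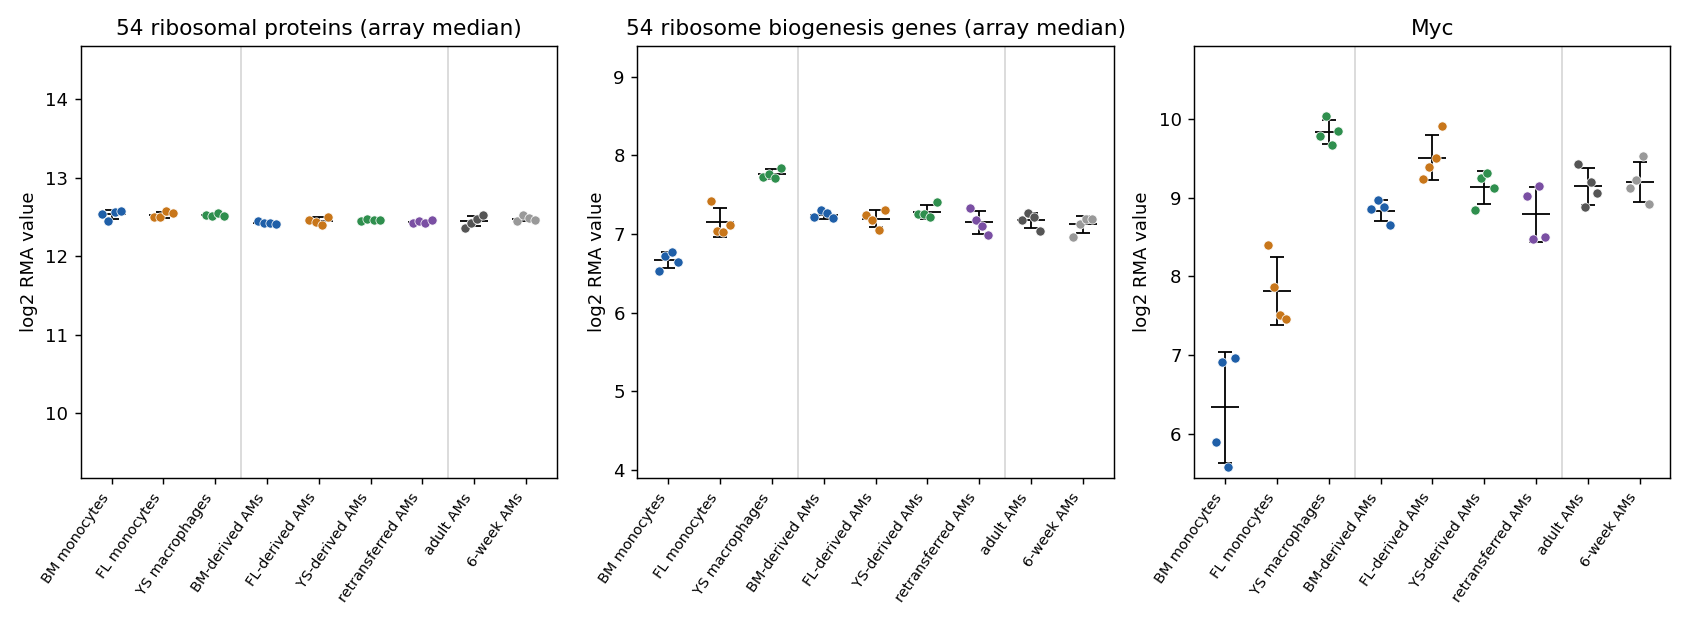
Median log2 RMA value per array of the 54 core ribosomal proteins (left) and the 54 ribosome biogenesis genes (middle), and the level of Myc (right), with the mean and SD of each group of 4 as black bars; the y axes span the same number of log2 units. The core medians lie between 12.37 and 12.58 in all 36 arrays, whereas biogenesis medians run from 6.53 in a BM monocyte array to 7.85 in a YS macrophage array.

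Mitochondrial ribosomal proteins, which serve the separate ribosome of that organelle, were tested for 77 genes. In FL against BM monocytes 26 were higher and none lower, with a median difference of 0.38, beside 10.6% higher and 8.97% lower among all genes. When FL monocytes became AMs, 1 rose and 34 fell, beside 20.4% and 18%. YS macrophages exceeded BM monocytes for 25 and were below them for 5, which is 39.0% of the list called beside 42.2% of all genes. For 27 genes of translation factors and other messages with pyrimidine-rich starts, FL minus BM monocytes gave 6 higher and 2 lower, which is 29.6% called beside 19.5% of all genes. YS minus BM gave 10 higher and 4 lower, 51.9% beside 42.2%. Of 27 cell cycle genes, 24 were higher in FL and 17 in YS cells than in BM monocytes with none lower, beside 10.6% and 24.1% of all genes higher. The part of cell cycle genes in the ribosome biogenesis difference was not tested. Fau, the ubiquitin-like fusion that yields a small subunit protein, was 0.19 ± 0.07 lower in BM-derived AMs than in BM monocytes (adjusted p = 0.0298, limma), and was not called in the other 5 comparisons with a precursor.

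**Figure D5:**
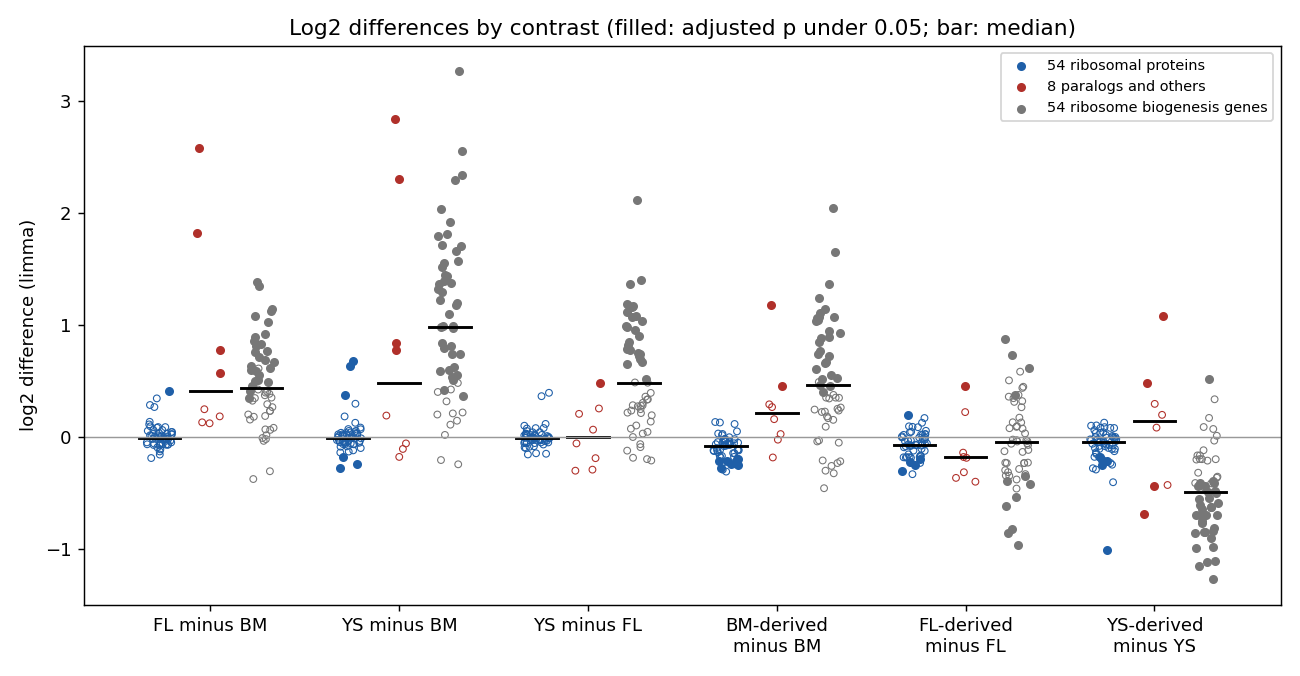
Log2 differences in the 6 comparisons that involve a precursor, for 54 core ribosomal proteins, 8 copies and other members, and 54 ribosome biogenesis genes; filled points passed limma's test at an adjusted p under 0.05 and black bars are medians. In YS minus BM the core median is -0.01 and the biogenesis median 0.99, and the top copies in the first 2 comparisons are Rpl39l and Rps4l.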

How the data were processed

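The deposited series table holds log2 expression values for 35556 probe sets in 36 arrays, made by RMA per the submitters' processing notes, which give no version. RNA was amplified with a NuGEN kit per the series' design text. Symbols came from the platform annotation and were updated through RefSeq (GRCm38.p6): 21789 probe sets had 1 symbol, 1621 several and 12146 no entry here. Many ribosomal protein genes have processed copies in the genome, and 39 of the 63 members had more than 1 probe set, so signal from copies cannot be separated.

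A gene was tested when at least 4 arrays exceeded the table median of 4.62, which kept 12244 of 19938 genes and 62 members. Group means, 15 differences and 3 interactions were fitted with limma 3.58.1 in R 4.3.3 over all arrays (eBayes with a constant prior). Calls were made at 0.05 after Benjamini-Hochberg adjustment within each comparison. A fold against a group mean under the table median used that median. The procedure was tested on simulated data. Promoter windows came from RefSeq.

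Genes were named by a written rule: the copies with their partners, the stalk, Rpsa and Rps19bp1, the 6 other members with the widest and the 3 with the narrowest spread of group means, up to 3 called members per direction and comparison without overlap, and the top 4 of each list. Where a count of called members was small, all were named. The members and lists were chosen with earlier results of these data known. Alternatives were centring, quantile normalization, other filters, the mean of a gene's probe sets, a trended robust prior, only the groups compared, a replicate block and leaving out each array.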

Additional observations from a re-analysis of the deposited data

Results flagged for a closer look

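Within groups of 4 arrays, 15 single values lay far from the other 3 (Dixon's test), out of 252 sets of 4 screened, where chance gives about 1 in 20. In AMs of 6-week-old mice these were Rpl39l 6.07 and Rpl10 12.80 in replicate 1, and Rpl3l 5.17 and Rps19bp1 8.17 in replicate 2. YS macrophage replicate 1 was low for Rps27l (10.61) and Rpl7l1 (8.03), and YS-derived replicate 4 was low for Rps27l (10.68) and Rpl34 (9.69). BM monocyte replicate 2 was low for Rps9 (12.40), Rpl19 (12.54) and Rplp2 (7.46), and replicate 1 for Rplp1 (13.10). BM-derived replicate 4 was low for Rpl7l1 (7.24), retransferred replicate 4 high for Rplp0 (12.79) and adult AM replicate 4 high for Rpl6 (12.02).

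The change on transfer differed between origins by limma's interaction test for 7 results. YS minus BM cells gave -0.95 for Rps19bp1, -0.73 for Rpl7l1, -0.70 for Rpl14, -0.34 for Rps2 and 0.32 for Rps9. FL minus BM cells gave -0.35 for Rps2, and YS minus FL cells gave -0.77 for Rpl14.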

How the results depend on the processing

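No member named by the rule and called in the main fit changed sign in an alternative. The median over the members did, and so did the balance of calls higher and lower. In the main fit this median was -0.044 for YS-derived minus YS, which centring turned positive. It was -0.009 for YS minus BM, -0.012 for YS minus FL, and 0.029 and 0.012 for the YS interactions against BM and FL. Quantile normalization turned each of these to the other sign. Centring arrays gave 19 members called for YS minus BM, 7 for YS minus FL, 29 for BM-derived minus BM, 16 for FL-derived minus FL, 5 for YS-derived minus YS, 2 for FL-derived minus BM-derived, and 0 and 9 for the FL and the YS against BM interactions. Its median differences were -0.17, -0.16, -0.20, -0.17 and 0.036 for the first 5, 0.087 for YS-derived minus BM-derived, -0.11 for BM-derived minus 6-week-old AMs, and 0.24 and 0.19 for the YS interactions against BM and FL. Quantile normalization gave 2 (YS minus FL), 16, 17 and 25 (the BM, FL and YS transfers), 2 (FL-derived minus BM-derived) and 3 (YS against BM interaction), with medians of 0.086 (YS minus BM), 0.037 (YS minus FL), -0.12 (FL transfer), -0.16 (YS transfer), -0.052 and -0.055 (YS interactions). The trended robust prior gave 8, 2, 19, 17 and 19 for FL minus BM, YS minus FL and the BM, FL and YS transfers, and 3 and 9 for the FL and YS against BM interactions; its share of members called stayed below that of all genes in each of these. Fitting only the groups compared gave 2, 1 and 5 for the transfers, 0 for retransferred minus adult AMs and for YS-derived minus 6-week-old AMs, and 0 and 3 for the interactions against BM. The mean of a gene's probe sets gave 11 for the FL transfer and 0 for the FL interaction, and no filter gave 0 for YS-derived minus 6-week-old AMs. Beside the other counts in this paragraph the share of all genes is not given, so they do not compare members with all genes. Apart from fewer arrays or more genes tested, the cause of the changed counts was not tested.

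Replicate numbers were shared by all groups, and the samples were not treated as pairs. Over 144 pairs of same-numbered arrays the correlation of deviations ran from -0.38 to 0.42. For retransferred and adult AMs it ran from -0.01 to 0.42. These values do not settle whether donor cells and descendants were paired. A replicate block gave 2 members for FL-derived minus BM-derived and 0 for the FL against BM interaction, and otherwise kept counts within 1.5 times. Leaving out 1 array gave 5 to 6 members for FL minus BM, 8 to 11 for YS minus BM, 0 to 1 for YS minus FL, 4 to 8, 4 to 7 and 5 to 8 for the BM, FL and YS transfers, 0 to 1 for retransferred minus adult AMs and for YS-derived minus 6-week-old AMs, 1 to 2 for FL-derived minus BM-derived, and 0 to 2, 4 to 6 and 1 to 2 for the interactions; the median for retransferred minus adult AMs ran from -0.016 to 0.041. The number of arrays limits the precision, and probe sets below the table median bound rather than measure a level.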
